A study of Homo sapiens with 6 samples.

Results

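The activin and follistatin axis was examined in SW839 cells, an established human renal cell carcinoma line, with and without knockdown of RNF25, a RING-type ubiquitin ligase. It was taken as 8 of the 30267 genes in the deposited table: the activin subunit genes INHBA and INHBB, the antagonist genes FST and FSTL3, and the receptor genes ACVR1, ACVR1B, ACVR2A and ACVR2B. These genes were selected on measured values of this same comparison, in which INHBA was far lower after RNF25 knockdown. Their differences between the groups are therefore given as a description, with fitted intervals and without a test.

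Activins are secreted dimers of the TGF-β superfamily. A pair of INHBA products forms activin A, a pair of INHBB products forms activin B, and one of each forms activin AB, whereas dimers with the INHA product are inhibins. Follistatin (FST) and follistatin-like 3 (FSTL3) bind activins outside the cell and neutralise them. Free activin binds the type II receptors ACVR2A and ACVR2B, which recruit and activate a type I receptor. ACVR1B (ALK4) is the main activin type I receptor and phosphorylates SMAD2 and SMAD3, which enter the nucleus with SMAD4. ACVR1 (ALK2) is a type I receptor best known for BMP signaling. In the kidney, activin A is known for its part in tubule growth, injury and fibrosis.

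RNA was sequenced from 6 libraries. The 3 shRNF25 libraries came from SW839 cells with an RNF25 short hairpin RNA, and the 3 shControl libraries came from SW839 cells with the pLKO vector. Per the study's methods these were stable lines made with lentivirus and selected with puromycin. The labels give the series as biological triplicates but do not say whether libraries came from separate cultures, so p-values measure only the spread between these libraries, which may be technical. The knockdown libraries carry 1 hairpin name, and the treatment label of the control samples mentions the shRNF25 plasmid as well, so group membership was taken from titles and library names. No batch is labelled, and the control library names differ in form from one another, so any batch shared by 1 group and the knockdown cannot be told apart.

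Each library held between 18647460 and 19943154 counted reads. RNF25, the hairpin target, was at 694, 534 and 536 normalized counts in shControl replicates 1 to 3 and at 214, 246 and 265 in shRNF25 replicates 1 to 3. It fell to 41.1% of the control mean, with a log2 fold change of −1.27 (SE 0.150, adjusted p = 5.85e-04 by limma with Benjamini-Hochberg adjustment over 16554 genes). An exact permutation test (two-sided, 6 libraries) gave p = 0.100, the smallest that 3 against 3 libraries allow. An exon of STK36 on the other strand overlaps RNF25 exons by 260 bases, and STK36 was at 794.9 normalized counts in shControl and 1183 in shRNF25. The epithelial keratin genes KRT8 (22206 to 31848 in shControl, 35088 to 38009 in shRNF25) and KRT18 (15768 to 17866 and 17393 to 18790.1) were high, and VIM was at 203 to 448 and 804 to 882. The renal factor PAX8 was at 118 to 140.3 in shControl and at 76.7 to 109.6 in shRNF25, and the renal carcinoma marker CA9 was low, at 7.74 to 50.7 and 1.85 to 8.20. KRT8 and VIM were thus higher and PAX8 lower in every shRNF25 library. The summed level, mostly of the keratins, of 5 measured renal markers of 8 ranged from 38553 to 50108 in shControl and from 53843 to 57724 in shRNF25. Summed over all 4 leukocyte markers the level was 16.2 to 22.6 in shControl and 11.4 to 22.8 in shRNF25. Over all 3 endothelial markers it was 459.7 to 678 and 413 to 557, and over all 4 fibroblast markers 1106 to 1289.7 and 864 to 1011, mostly from PECAM1 and COL1A1, with the fibroblast marker DCN at 0 to 1.03. Their part in the results below was not tested. The shControl libraries differed more among themselves than the shRNF25 libraries did, with chi-square values per degree of freedom of 19.28 to 97.56 for pairs of shControl replicates and 3.402 to 4.828 for pairs of shRNF25 replicates.

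The promoter windows of the 2 ligand genes are shown because these genes differed in opposite directions between the groups. Each is the 250 bases upstream of the RefSeq start site on GRCh38.p14, written 5′ to 3′ on the strand of the gene. INHBA lies on chr7:41703091-41703340 on the minus strand and INHBB on chr2:120345886-120346135 on the plus strand. Capitals mark a match to the letters of a TATA box (TATAAA) in INHBA. In INHBB they mark matches to a κB motif (GGG, any 5 bases, then CC, on either strand). The INHBA window lies inside the GENCODE span of the gene given below, downstream of its annotated start. The TATAAA match falls within an exon of that annotation.
INHBA: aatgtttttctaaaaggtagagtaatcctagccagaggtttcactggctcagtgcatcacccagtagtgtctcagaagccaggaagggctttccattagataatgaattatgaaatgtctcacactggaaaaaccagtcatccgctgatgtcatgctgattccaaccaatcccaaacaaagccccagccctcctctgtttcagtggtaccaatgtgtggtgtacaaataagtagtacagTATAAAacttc
INHBB: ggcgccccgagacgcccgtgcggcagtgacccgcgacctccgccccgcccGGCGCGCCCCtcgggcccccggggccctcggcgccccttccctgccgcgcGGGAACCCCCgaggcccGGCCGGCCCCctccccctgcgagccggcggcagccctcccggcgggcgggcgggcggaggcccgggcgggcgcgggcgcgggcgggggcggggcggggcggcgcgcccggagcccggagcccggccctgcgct

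The windows differed in base composition. GC content was 42.8% in the INHBA window and 89.6% in the INHBB window, against a median of 58.0% over 35116 RefSeq promoters, and 8 of those promoters had a higher GC content than INHBB. The INHBA window held TATAAA at positions −11 to −6 before the start site, a motif found on either strand in 10.7% of all promoters. It held no match to AP-1 (TGANTCA, in 6.57% of promoters), CRE (TGACGTCA, in 1.65%), the κB motif (in 54.4%), the SMAD palindrome (GTCTAGAC, in 0.182%) or the shorter SMAD element (CAGAC, in 38.0%). The INHBB window held 3 κB matches, at −200 to −191, −150 to −141 and −133 to −124, and none of the other motifs. All 8 genes had a window, and ACVR1 and ACVR1B had more than 1. The κB motif was not particular to INHBB, as FSTL3 and ACVR2B held 4 matches each, FST 3 and ACVR2A 1. ACVR1B held 4 at 1 start site, and the ACVR1 start sites held 5, 0 and 1. An AP-1 match was present upstream of FST and at 1 of the ACVR1 start sites. FSTL3 also held a TATAAA match on the other strand, and ACVR1 and ACVR1B each held a SMAD element at 1 start site. A match is a description of letters and not a bound site.

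The ligand genes INHBA and INHBB differed in opposite directions. INHBA was the highest of the 8 genes in shControl and was lower by the largest margin in shRNF25. INHBB was higher in every shRNF25 library than in any shControl library. In annotation GENCODE release 29 on GRCh38, INHBA spans chr7:41667168-41705834 on the minus strand and INHBB spans chr2:120346143-120351808 on the plus strand.

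INHBA was at 27049, 28468 and 24334 normalized counts in shControl replicates 1 to 3 and at 3479.8, 3428 and 3252 in shRNF25 replicates 1 to 3. The groups lay far apart, and the spread within each was small. The means were 26617 ± 2101 and 3387 ± 119 (SD, n = 3 each), so shRNF25 stood at 12.7% of shControl, 7.86-fold lower. The fitted log2 fold change was −2.97 (SE 0.105, 95% interval −3.21 to −2.74). By size of the log2 fold change INHBA stood at position 45 from the lowest of 16554 tested genes. INHBA took 0.123%, 0.140% and 0.121% of all counted reads in the shControl libraries and 0.0197%, 0.0188% and 0.0179% in the shRNF25 libraries. As these are bulk samples, fewer cells that express a gene and less RNA per cell cannot be told apart.

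INHBB was at 5814, 8140.5 and 7116 normalized counts in shControl and at 11329.7, 11767 and 12164 in shRNF25. The means were 7023 ± 1166 and 11754 ± 417 (SD, n = 3 each), 1.67-fold higher in shRNF25. The fitted log2 fold change was 0.76 (SE 0.133, 95% interval 0.46 to 1.06). The shControl libraries were the more variable ones, with a coefficient of variation of 16.6% against 3.55% in shRNF25.

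**Figure D1:**
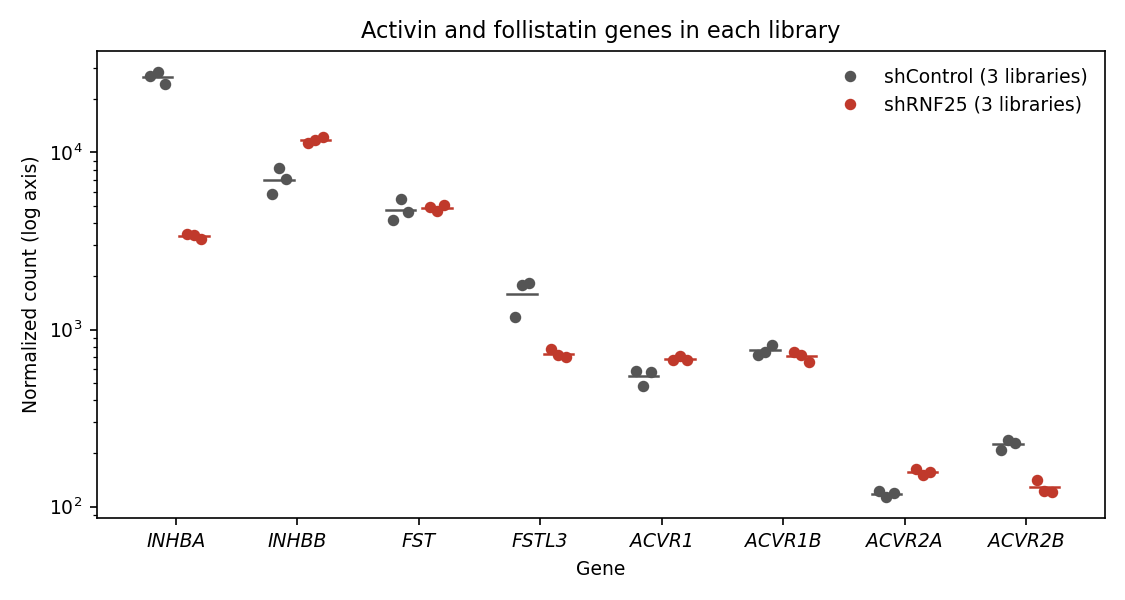
Normalized counts (vertical log axis) of the 8 activin and follistatin genes (horizontal axis) in each of 3 shControl and 3 shRNF25 libraries, with points for libraries and lines for group means. INHBA was at 24334 or more in every shControl library and at 3479.8 or less in every shRNF25 library, INHBB was higher in shRNF25, and FST and ACVR1B overlapped between the groups.

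The antagonist genes did not move alike. FST (chr5:53480409-53487134, plus strand) was at 4134, 5434 and 4634 normalized counts in shControl and at 4899, 4653 and 5035 in shRNF25. The groups overlapped, with all shRNF25 values inside the shControl range. The means were 4734 ± 655 and 4862 ± 194 (SD, n = 3 each), and the log2 fold change was 0.05 (SE 0.120, 95% interval −0.22 to 0.32). Its sign depended on the libraries included (−0.05 to 0.15 with 1 library left out), and it was 0.21 after quantile normalization. FSTL3 (chr19:676365-683399, plus strand) was at 1171, 1781 and 1838 in shControl and at 778, 716 and 701 in shRNF25. Every shRNF25 value lay below every shControl value, although shControl replicate 1 was well below the other two. The means were 1597 ± 370.0 and 731 ± 41.1 (SD, n = 3 each), 2.18-fold lower in shRNF25, and the log2 fold change was −1.10 (SE 0.171, 95% interval −1.48 to −0.71).

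The type II receptor genes differed in opposite directions. ACVR2A (chr2:147844517-147930826, plus strand) was at 122, 114 and 119 normalized counts in shControl and at 163, 151 and 156 in shRNF25. The ranges were narrow and did not overlap, with means of 118 ± 3.90 and 157 ± 6.29 (SD, n = 3 each). The log2 fold change was 0.40 (SE 0.138, 95% interval 0.09 to 0.72), a 1.33-fold higher level. Exons of ORC4 on the other strand overlap those of ACVR2A by 430 bases, and ORC4 was at 705.3 in shControl and 642 in shRNF25. The sources used here do not say whether reads were counted by strand, and without strand reads from that stretch cannot be told apart. ACVR2B (chr3:38453851-38493142, plus strand) was at 208, 239 and 229 in shControl and at 141, 123 and 121 in shRNF25. Every shRNF25 library was lower, with means of 225 ± 15.9 and 128 ± 11.2 (SD, n = 3 each), 57.0% of shControl. The log2 fold change was −0.81 (SE 0.142, 95% interval −1.13 to −0.49).

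The type I receptor genes differed little. ACVR1 (chr2:157736444-157875862, minus strand) was at 585, 480.2 and 577 normalized counts in shControl and at 669.7, 705 and 675 in shRNF25. All shRNF25 libraries were higher, but by only 1.25-fold between the means of 547 ± 58.4 and 683 ± 18.9 (SD, n = 3 each), with a log2 fold change of 0.32 (SE 0.120, 95% interval 0.05 to 0.59). ACVR1B (chr12:51951667-51997078, plus strand), the receptor most used by activins, was at 719, 749 and 823 in shControl and at 745, 717 and 657 in shRNF25. The groups overlapped, with means of 764 ± 54.0 and 706 ± 45.2 (SD, n = 3 each), and the log2 fold change was −0.11 (SE 0.113, 95% interval −0.37 to 0.14).

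All 8 genes passed the filter on low values. By the call rule used for all genes, an adjusted p below 0.05 and a fold of at least 1.5, 3 of the 8 were called lower (INHBA, FSTL3 and ACVR2B) and 1 higher (INHBB), and 4 were not called. The same rule called 15.7% of the 16554 tested genes, 7.10% lower and 8.65% higher. In 6 of the 8 genes the groups did not overlap, as in 42.5% of all tested genes. As the genes were chosen from this contrast, nothing is read from these counts. The median log2 fold change was −0.03 over the 8 genes, 0.05 without INHBA and −0.01 over all tested genes.

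**Figure D2:**
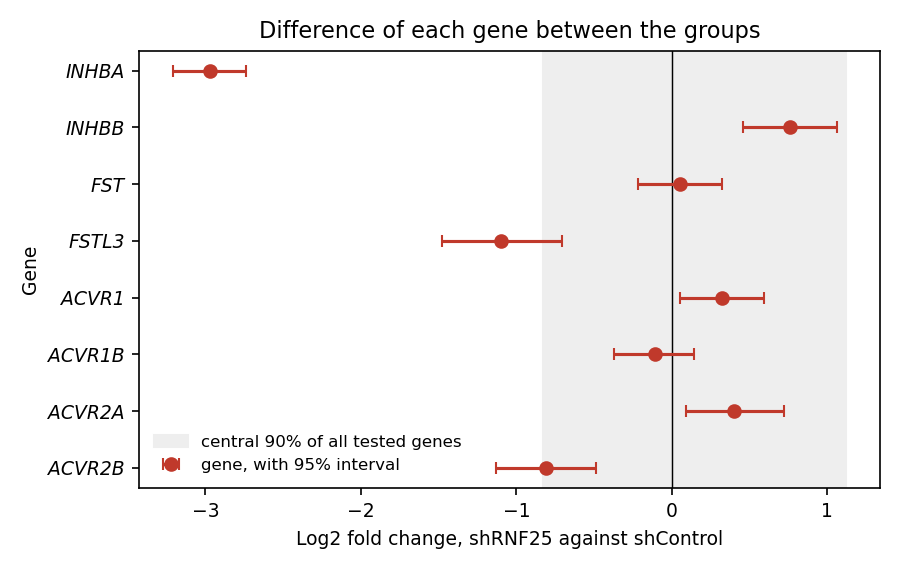
Fitted log2 fold change of shRNF25 against shControl (horizontal axis) for each of the 8 genes (vertical axis), with points for the estimate, bars for its 95% interval and a grey band for the central 90% of all tested genes. INHBA at −2.97 and FSTL3 at −1.10 lay beyond the band, whose limits were −0.83 and 1.12.

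Levels of different genes were compared as normalized counts per kilobase of union exon length. In shControl, INHBA was highest at 3206 ± 253 per kilobase, rank 174 among 28156 genes, followed by INHBB at 2192 ± 364 and FST at 1595 ± 221, whose ranges overlapped. FSTL3 followed at 521 ± 121 per kilobase, then ACVR1 at 137 ± 14.6 and ACVR1B at 134 ± 9.49, which overlapped as well. The type II receptor genes were the lowest, ACVR2A at 17.4 ± 0.576 and ACVR2B at 14.3 ± 1.01 per kilobase. The subunit and follistatin transcripts were thus the abundant ones and the receptor transcripts the sparse ones.

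In shRNF25 the order at the top was different. INHBB was highest at 3668 ± 130.2 per kilobase, rank 112, then FST at 1638 ± 65.3, and INHBA was the third at 408 ± 14.4, rank 2149. FSTL3 at 239 ± 13.4, ACVR1 at 171 ± 4.72 and ACVR1B at 124 ± 7.95 per kilobase came next, and ACVR2A at 23.1 ± 0.929 and ACVR2B at 8.15 ± 0.710 were again lowest. No neighbours in this order had overlapping ranges.

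Ratios of these per-kilobase levels within a library do not depend on the scaling between libraries. INHBA to INHBB was 1.80, 1.35 and 1.32 in shControl and 0.119, 0.112 and 0.103 in shRNF25. The more abundant of the 2 subunit transcripts was therefore INHBA in every shControl library and INHBB in every shRNF25 library. INHBA made up 59.5% ± 4.09 of the INHBA and INHBB level in shControl and 10.0% ± 0.626 in shRNF25 (SD, n = 3 each).

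The ligand to antagonist ratios differed by ligand. INHBA to the sum of FST and FSTL3 was 1.84, 1.42 and 1.36 in shControl and 0.220, 0.229 and 0.204 in shRNF25. INHBB to the same sum was 1.02, 1.05 and 1.03 in shControl and 1.86, 2.04 and 1.97 in shRNF25. One ratio was thus lower and the other higher in shRNF25, without overlap. With both ligand genes summed, the ratio was 2.86, 2.48 and 2.38 in shControl and 2.08, 2.27 and 2.18 in shRNF25, a smaller difference that depended on the length used. With the longest coding transcript as the length it was 3.00, 2.55 and 2.45 in shControl and 1.84, 2.00 and 1.92 in shRNF25, a log2 difference of −0.47 in place of −0.24. These last 2 kinds of ratio were added after the values had been seen.

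FST to FSTL3 was 3.65, 3.15 and 2.60 in shControl and 6.50, 6.72 and 7.42 in shRNF25. ACVR2A to ACVR2B was 1.36, 1.11 and 1.21 in shControl and 2.69, 2.85 and 3.00 in shRNF25. Both pairs shifted toward the first gene in every shRNF25 library. ACVR1 to ACVR1B was 1.16, 0.914 and 1.000 in shControl and 1.28, 1.40 and 1.47 in shRNF25. With the longest coding transcript as the length, the log2 ratio of INHBB to the antagonist sum in shControl was −0.19 in place of 0.05, so its side of 1 depends on the length used. With that length ACVR2A to ACVR2B was 1.21, 0.983 and 1.07 in shControl and 2.38, 2.53 and 2.66 in shRNF25. Which type II receptor transcript was higher in shControl thus depends on the length as well.

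**Figure D3:**
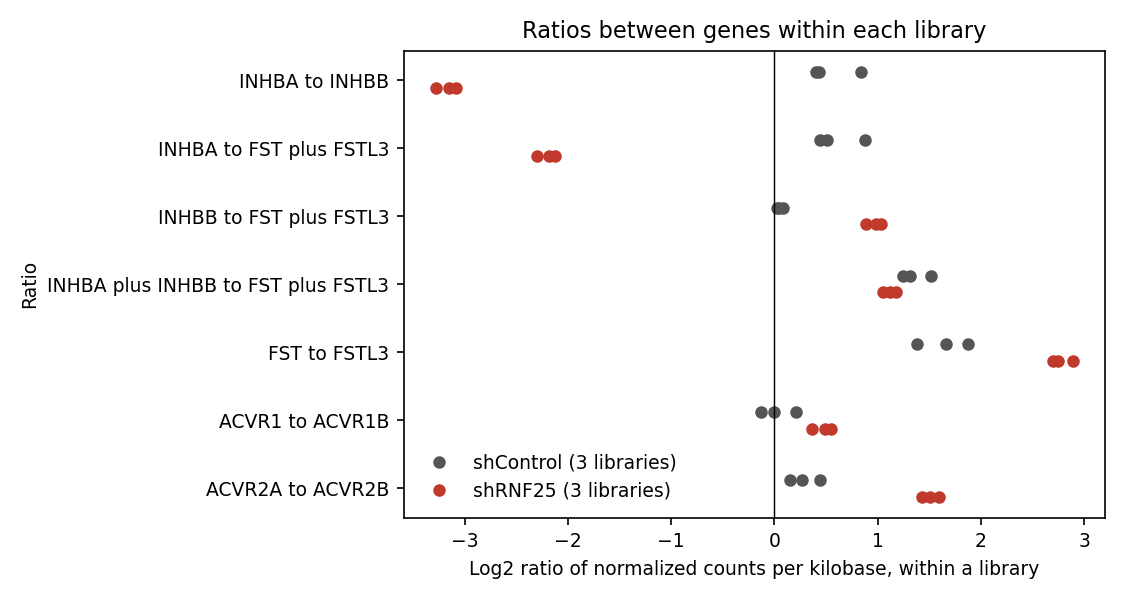
Log2 ratio of normalized counts per kilobase (horizontal axis) for 7 pairs or sums of genes (vertical axis), 1 point per library. INHBA to INHBB lay between 0.40 and 0.84 in shControl and between −3.28 and −3.08 in shRNF25, whereas the ratio with both ligand genes summed differed least between the groups among the 4 ligand ratios.

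INHBA-AS1, the antisense RNA of INHBA, was lower as well. It lies on chr7:41693916-41779388 on the plus strand, and the span of its gene overlaps that of INHBA by 11919 bases, with no overlap between exons. INHBA-AS1 was at 400.2, 320.1 and 277 normalized counts in shControl and at 57.4, 51.7 and 61.0 in shRNF25. It fell 5.86-fold, from 333 ± 62.3 to 56.7 ± 4.68 (SD, n = 3 each), with a log2 fold change of −2.52 (SE 0.174, adjusted p = 3.58e-05 by limma; exact permutation p = 0.100). Without strand in the counting, reads of unspliced INHBA RNA could not be told apart from INHBA-AS1 at its 1 exon inside an INHBA intron, so its values are uncertain.

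**Figure D4:**
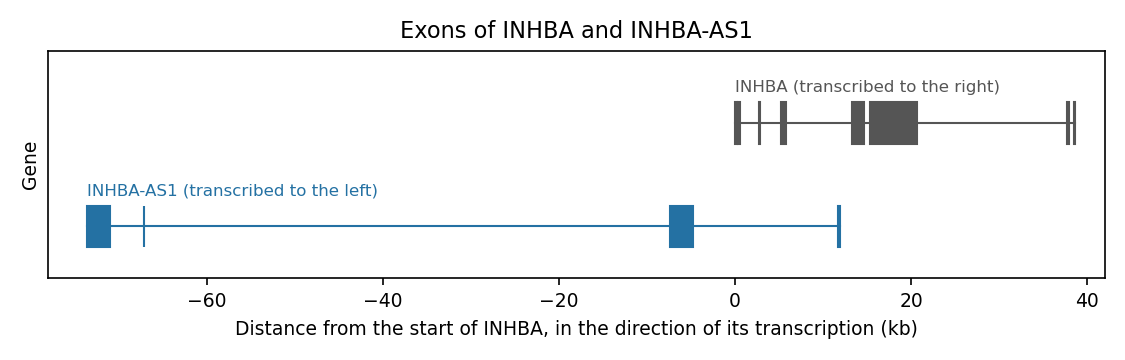
Exons (boxes) of INHBA and INHBA-AS1 (vertical axis) by distance in kilobases from the annotated start of INHBA, in the direction of INHBA transcription (horizontal axis). The genes are transcribed in opposite directions and overlap over 11919 bases, but their exons do not.

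The tested genes whose centred log2 profile over the 6 libraries was most like that of INHBA were DEPP1, NOD2, HEPHL1, CTSS and CALHM5, by root mean square difference. The differences were 0.209, 0.216, 0.227, 0.229 and 0.237 log2 units. With 3 shControl and 3 shRNF25 libraries, such closeness is largely a similar difference in the contrast from which INHBA was chosen. It is a description, and shared regulation was not tested. DEPP1 was at 395 ± 28.0 normalized counts in shControl and 60.2 ± 12.1 in shRNF25, and NOD2, an intracellular sensor of bacterial peptidoglycan, at 101 ± 17.0 and 9.26 ± 1.65. HEPHL1, a ferroxidase, was at 3259 ± 599 and 515 ± 85.6, and CTSS, a lysosomal cysteine protease, at 73.0 ± 10.0 and 11.5 ± 0.802. CALHM5 was at 24.4 ± 6.16 in shControl and at no more than 3 reads in any shRNF25 library, which is the floor used here. INHBA-AS1 stood at position 9, with 0.276. With a pseudocount of 5 in place of 1, 3 of these 5 genes were again among the nearest 5, without CTSS and CALHM5. NOD2 and CALHM5 passed the filter on low values only through the shControl libraries, where they were higher.

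Other genes of the pathway were taken from 6 lists with 63 symbols, of which 55 were in the table and 46 passed the filter on low values. Of these, 8 fell, 6 rose and 32 did not pass the call rule, against 7.10% and 8.65% of all tested genes. Their median log2 fold change was −0.10, with 26 negative and 20 positive values. Leaving out 1 library moved the number that fell to between 4 and 10, with 5 without shControl replicate 3 or shRNF25 replicate 1 and 4 without shRNF25 replicate 2 or 3. The number that rose was then 4 to 7. With a minimum of 50 in place of 10 in at least 3 libraries, 7 fell and 4 rose.

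Neither of the other 2 subunit genes tested passed, with log2 fold changes of 0.38 for INHA (SE 0.231, adjusted p = 0.268 by limma), which encodes the inhibin α subunit, and 0.39 for INHBE (SE 0.276, adjusted p = 0.345). None of 3 other tested ligands of the type II receptors passed. Among 7 tested co-receptors, antagonists and processing enzymes, 2 rose and none fell, where 8.65% of all tested genes were called higher and 7.10% lower. WFIKKN1, which encodes a secreted protein that binds GDF8 and GDF11, was at 4.42, 9.23 and 11.9 normalized counts in shControl and at 36.4, 26.8 and 35.3 in shRNF25, a log2 fold change of 1.91 (SE 0.361, adjusted p = 0.00614 by limma). PCSK6, a proprotein convertase of TGF-β family precursors, rose from 6.13 ± 2.90 to 20.7 ± 5.83 (SD, n = 3 each; log2 fold change 1.66, SE 0.406, adjusted p = 0.0192 by limma). Both were low in every library, and PCSK6 did not pass without shRNF25 replicate 1 (adjusted p = 0.0999) or replicate 3 (adjusted p = 0.0776). WFIKKN1 and PCSK6 passed the filter on low values only through the shRNF25 libraries, where they were higher. Their calls are therefore a description and not independent of that filter.

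Of 6 other type I and type II receptors tested, 1 fell and 1 rose, beside 7.10% and 8.65% of all tested genes. ACVRL1 (ALK1), the endothelial receptor for BMP9, was at 12.2, 13.3 and 11.9 normalized counts in shControl and at 3.64, 4.62 and 6.67 in shRNF25 (log2 fold change −1.20, SE 0.345, adjusted p = 0.0367 by limma). This call ended when any library other than shControl replicate 1 was left out (adjusted p = 0.0543 to 0.136) with a replicate block (adjusted p = 0.0677), without the filter on low values (adjusted p = 0.0659) and by DESeq2 (adjusted p = 0.144). Of the endothelial markers, CDH5 was at 73.0 to 199 in shControl and at 3.64 to 8.31 in shRNF25, VWF at 7.18 to 13.0 and 3.64 to 6.67, and PECAM1, the most abundant, at 349.9 to 466 and 399 to 549. Their part in the ACVRL1 value was not tested. ACVRL1 passed the filter on low values only through the shControl libraries, where it was higher, so its call is a description. BMPR1B, a type I BMP receptor, rose from 113 ± 16.9 to 183 ± 15.3 (SD, n = 3 each; log2 fold change 0.70, SE 0.164, adjusted p = 0.0161 by limma), and this call ended without shControl replicate 1 (fold under 1.5) or without shRNF25 replicate 2 or 3 (adjusted p = 0.0826 and 0.0865). TGFBR1 (ALK5), the type I receptor for TGF-β, was at 611 ± 34.4 and 435 ± 36.4, a log2 fold change of −0.49 (adjusted p = 0.0182 by limma) below the fold limit. Without shRNF25 replicate 1, 2 or 3 its adjusted p by limma was above 0.05 (0.0718, 0.111 and 0.0623).

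Of 16 SMAD transducers and regulators tested, 1 fell and 1 rose, beside 7.10% and 8.65% of all tested genes. SMAD6, an inhibitory SMAD that acts mainly on BMP signaling, was at 407, 423 and 672 normalized counts in shControl and at 1551, 1467 and 1541 in shRNF25. It rose 3.04-fold, with a log2 fold change of 1.64 (SE 0.183, adjusted p = 4.56e-04 by limma). SMURF2, a ubiquitin ligase that targets SMADs and TGF-β family receptors, fell from 4491 ± 1004 to 2388 ± 27.5 (SD, n = 3 each; log2 fold change −0.89, SE 0.149, adjusted p = 0.00353 by limma). The transducers themselves did not pass. SMAD2 had a log2 fold change of 0.09 (SE 0.120, adjusted p = 0.645 by limma), SMAD4 0.33 (SE 0.122, adjusted p = 0.0846) and the inhibitory SMAD7 0.34 (SE 0.276, adjusted p = 0.418). SMAD3 was at 5779 ± 851 in shControl and 3883 ± 55.6 in shRNF25, a log2 fold change of −0.56 (adjusted p = 0.0124 by limma) just under the fold limit, and it passed without shControl replicate 2 (−0.69, adjusted p = 0.00532).

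All 12 genes listed as known targets of SMAD2 and SMAD3 signaling were tested, of which 6 fell, 2 rose and 4 did not pass, where 7.10% of all tested genes were called lower and 8.65% higher. The list was drawn up with earlier results of these data known and is not independent evidence of a direction. Its median log2 fold change was −0.65, against −0.01 over all tested genes, with 9 negative values and 3 positive ones. TGFBI, a secreted matrix protein named for its induction by TGF-β, was at 317, 344 and 691 normalized counts in shControl and at 23.7, 26.8 and 20.0 in shRNF25. It fell to 5.21% of the control mean (log2 fold change −4.12, SE 0.286, adjusted p = 3.61e-05 by limma). FN1, which encodes fibronectin, was at 56278, 49268 and 30895 in shControl and at 9437, 8450.1 and 8539 in shRNF25, a 5.16-fold fall (log2 fold change −2.32, SE 0.201, adjusted p = 1.30e-04 by limma). In TGFBI shControl replicate 3 was the highest library, and in FN1 it was the lowest of its group.

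Smaller falls were those of ITGB6, the integrin β6 subunit (log2 fold change −1.02, adjusted p = 0.0169 by limma), the secreted protein gene TSKU (−0.75, adjusted p = 0.0151) and the metalloprotease gene ADAM19 (−0.64, adjusted p = 0.0116). Against that direction, CCN2, a matricellular growth factor, was at 573, 713 and 1185 normalized counts in shControl and at 2425, 2474 and 2580.3 in shRNF25 (log2 fold change 1.67, SE 0.226, adjusted p = 0.00125 by limma). CDKN2B, an inhibitor of cyclin-dependent kinases, rose from 506 ± 72.4 to 1006 ± 100.1 (SD, n = 3 each; log2 fold change 0.99, SE 0.136, adjusted p = 0.00132 by limma). Only 3 targets were called lower without shRNF25 replicate 2 or 3, when the calls of ITGB6, TSKU and ADAM19 ended. ITGB6 and TSKU also lost their call without shRNF25 replicate 1, and TSKU and ADAM19 without shControl replicate 3. The ADAM19 fold was also under 1.5 after quantile normalization (log2 fold change −0.46) or rescaling on the median ratio (−0.58).

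**Figure D5:**
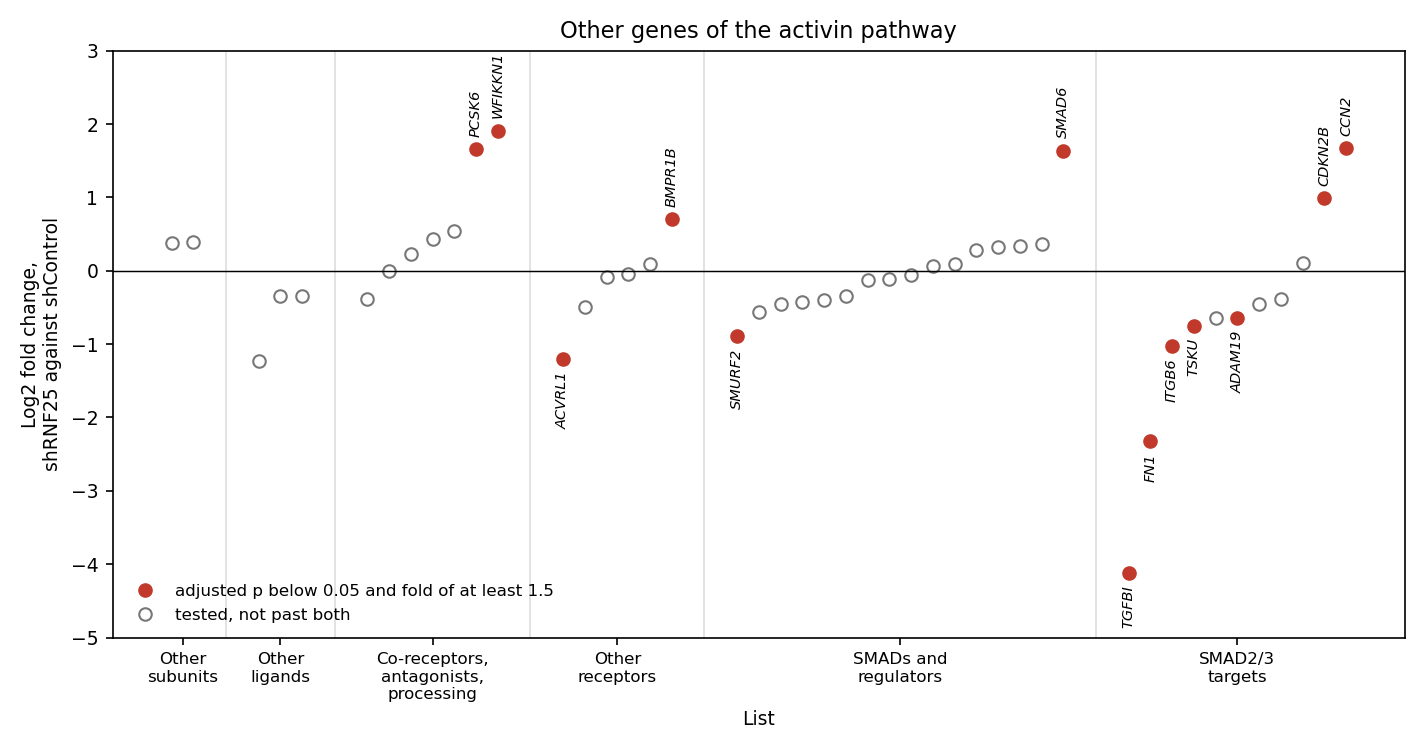
Log2 fold change of shRNF25 against shControl (vertical axis) of 45 of the 46 other pathway genes tested, sorted within 6 lists (horizontal axis), with filled points for genes past an adjusted p of 0.05 and a fold of 1.5. TGFBI at −4.12 and FN1 at −2.32 were the lowest, and WFIKKN1 at 1.91 was the highest. Of the 16 SMAD transducers and regulators 14 were not called, where the same rule called 15.7% of all tested genes.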

How the data were processed

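RNA from 3 shRNF25 and 3 shControl libraries of SW839 cells had been depleted of ribosomal RNA and prepared with a stranded kit. The submitters' processing notes name fastp, HISAT2, HTSeq and GRCh38. The annotation and the use of strand in counting are not given in the sources used here. The authors deposited 1 table of normalized counts, a signal scaled between libraries. Its values gave back whole reads for 100% of values (largest deviation 0.000212 reads), scaled by DESeq2's size factors, with no correction for gene length.

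The members and gene lists were chosen with earlier results of these data known. Values were analysed as log2(normalized count + 1) with limma 3.58.1 (trend, no covariate) in R 4.3.3 on 16554 genes with at least 10 in at least 3 libraries, with Benjamini-Hochberg adjustment, so fold changes of low genes are understated. Genes were called at an adjusted p below 0.05 and a fold of at least 1.5. A group with at most 3 reads per library was at the floor. Alternatives were other pseudocounts, filters, scalings, a replicate block, each library left out, and edgeR 4.0.16 and DESeq2 1.42.0 on the recovered reads. Scripts were tested on simulated data. Named genes were the members, RNF25, INHBA-AS1, pathway genes past the call rule, SMAD2, SMAD3, SMAD4, SMAD7, TGFBR1 and the 5 genes most like INHBA; INHA, INHBE, STK36, ORC4 and the markers named were added beside these. Gene models were from GENCODE and promoters from RefSeq (GRCh38.p14). A protein comparison was planned, but protein sequences were not used here, and 8 listed symbols were not analysed here. The list counts include 1 gene that is not reported here by itself.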

Additional observations from a re-analysis of the deposited data

How the results depend on the processing

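Under 15 alternatives, 3 of the 8 activin and follistatin genes were called lower and 1 higher each time. With all libraries, 7.10% of all tested genes were called lower and 8.65% higher. The alternatives refit the same libraries from which the genes were chosen. Their calls are therefore a description and no further evidence of a difference. The log2 fold change of INHBA was −2.71 after quantile normalization and −3.03 to −2.92 with 1 library left out. Other pathway genes called lower numbered 4 to 10 with 1 library left out, and SMAD2 and SMAD3 targets called lower numbered 3 to 8, against 8 and 6 with all libraries. Of 432 values over 29 genes, 25 were no longer called and 1 became called, and 0 called values changed direction. A shift by more than the replicate spread was assessed only for the 8 activin and follistatin genes, where 4 values moved. The other genes were compared by call and direction alone. The uncalled FST changed sign without shControl replicate 1 (−0.05 against 0.05). Over all tested genes, 1432 were called higher and 1175 lower, a count of 898 higher and 987 lower with a minimum of 50, 1525 and 1133 by edgeR, 1283 and 1249 by DESeq2, and 748 to 1725 higher and 813 to 1269 lower with 1 library left out. The share called higher was 54.9%, or 62.6% after rescaling on the median ratio. Same-numbered libraries did not deviate together (correlations −0.0638, −0.0874 and 0.0471), and no library correlated best with its own number. A fit with a replicate block called 1398 higher and 1193 lower and changed 1 call among the named genes, that of ACVRL1. Among called pathway genes, the call ended under 8 alternatives for ACVRL1, 5 for ADAM19, 4 for TSKU, 3 each for ITGB6 and BMPR1B and 2 for PCSK6. WFIKKN1, PCSK6 and ACVRL1 were not tested with a minimum of 50, which they did not reach. They had 14 alternatives in place of 15, and that loss is not in these numbers.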
